A study of Homo sapiens with 6 samples.

Results

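The genes described here drive the passage from G1 into S phase and copy the DNA: G1 cyclins and their kinases, E2F transcription factors, and the proteins that license, open, prime and extend replication origins. They were taken from a list of 49 gene symbols, and 48 of them were matched to the Ensembl identifiers of the deposited files, which hold values for 19493 genes. UHRF1, which maintains DNA methylation behind the fork, was not matched and has no value here. RNA was sequenced from HaCaT cells, human epidermal keratinocytes that grow as an immortal line, and every group carried the cyclobutane pyrimidine dimer (CPD) photolyase of the marsupial Potorous tridactylus. The 3 groups of 2 libraries were untreated cells whose photolyase was left inactive (control), cells that received 15 J/m2 of 254 nm UVC, also with inactive photolyase (UVC), and equally irradiated cells kept for 2 h in white light to activate the enzyme (active photolyase). Irradiated cells were collected 6 h after UVC. White light was given only with active photolyase, so light and repair of CPDs cannot be told apart. Separate cultures are not stated for the libraries within a group, so each p-value reflects library-to-library spread only, and that spread may be technical.

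In G1, D-type cyclins with CDK4 or CDK6, then cyclin E with CDK2, phosphorylate the retinoblastoma protein and free E2F factors, which switch on most of the replication genes. The origin recognition complex, CDC6 and CDT1 load the MCM2-7 helicase on DNA, and CDC45 and the GINS complex turn it into an active helicase. UVC makes CPDs and other lesions that stall both RNA polymerase II and replication forks, and a photolyase splits CPDs under visible light.

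All 48 genes reached 1 corrected RPKM (cRPKM, reads per kilobase of effective length, scaled to library size) in at least 2 libraries and were tested among 11926 genes; E2F7 reached it in 4 libraries and the other 47 in all 6. Printed levels are cRPKM divided by the library's TMM factor, a scaling that takes most genes as unchanged, and are called scaled cRPKM. Total counts ran from 57669389 to 70005705 per library, and the mitochondrial share was 3.32 and 3.92% (control), 5.13 and 5.28% (UVC) or 4.09 and 3.21% (active photolyase). The part of this share in the results was not tested. Where no scaling is named, a call is edgeR's with TMM. In a library a member gene had between 154 counts (PRIM1) and 37622 counts (CCND1). All 10 keratinocyte markers were tested, and their summed level was 31066 to 32018 scaled cRPKM in control, 18079 to 18498 after UVC and 29806 to 29828 with active photolyase. Much of the sum was KRT17, with a mean of 13675 in control and 5474 after UVC. After UVC 8 markers fell and 1, KRT5 (log2 change 0.32), rose (43.1% and 42.5% of all tested genes). With library totals 5 fell and 3 rose (29.7% and 59.5% of all). Of 7 melanocyte markers 1 was tested, with TYR at 0 in every library, and their summed level was 2.19 to 2.25 in control, 1.49 to 1.75 after UVC and 1.35 to 1.49 with active photolyase. The 9 fibroblast markers summed to 7.45 to 8.60, 8.59 to 8.79 and 9.74 to 10.2 in the same order, with COL1A2 at 0.0105 or less. The tested ones were COL1A1, at 5.14 to 7.16 and higher with active photolyase than in control (log2 change 0.29), and DCN, which rose after UVC (log2 change 0.79). The 11 immune cell markers, of which 4 were tested, summed to 133 to 146 in control, 182 to 183 after UVC and 189 to 199 with active photolyase, nearly all of it CD74 and CD68, with PTPRC at 0.0451 or less. The part of these markers in the results was not tested. The RNA came from whole cultures, so fewer cells in a phase of the cycle and less RNA per cell cannot be told apart.

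Since E2F factors are the known regulators of this set, the promoters in RefSeq's table (GRCh38.p14, 250 bases before to 50 after a gene's start) were searched on both strands for 4 forms of the E2F word, TTTGGCGC, TTTCGCGC, TTTCCCGC and TTTGCCGC. The table held promoters for 41 of the 49 genes, and 20 of them (48.8%) contained at least 1 word, against 612 of 9457 tested genes (6.47%) and 3.99% of all 27305 genes of the table. With the shorter words GGCGGGA and GGCGCGA the shares lay closer, 63.4% of the 41 genes, 37.0% of tested genes and 22.1% of all. CCND1, CCND2, CCNE2, CDK2, E2F8, GINS4, MCM4 and MCM5 had no entry. Forms can overlap on opposite strands, and a match is a run of letters, not a measured binding site. The 5 promoters printed here were picked from those with a word, and capitals mark the E2F words. Other genes described in full below had none, among them CCNE1, CDK6, E2F7, POLD1, PRIM1, RFC1 and RRM2.
E2F1, chr20:33686336-33686635, minus strand: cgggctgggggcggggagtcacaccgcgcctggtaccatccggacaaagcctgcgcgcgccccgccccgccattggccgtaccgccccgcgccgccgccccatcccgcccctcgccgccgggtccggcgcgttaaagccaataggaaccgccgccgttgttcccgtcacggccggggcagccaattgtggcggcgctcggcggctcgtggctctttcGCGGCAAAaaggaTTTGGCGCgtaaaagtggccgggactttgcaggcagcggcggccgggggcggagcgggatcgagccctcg
E2F3, chr6:20401629-20401928, plus strand: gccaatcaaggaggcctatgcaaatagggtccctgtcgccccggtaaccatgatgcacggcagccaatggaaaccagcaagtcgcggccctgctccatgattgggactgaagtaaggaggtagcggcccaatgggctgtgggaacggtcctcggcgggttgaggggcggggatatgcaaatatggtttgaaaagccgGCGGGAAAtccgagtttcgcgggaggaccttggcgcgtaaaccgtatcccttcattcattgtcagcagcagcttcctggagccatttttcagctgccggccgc
CDC6, chr17:40287629-40287928, plus strand: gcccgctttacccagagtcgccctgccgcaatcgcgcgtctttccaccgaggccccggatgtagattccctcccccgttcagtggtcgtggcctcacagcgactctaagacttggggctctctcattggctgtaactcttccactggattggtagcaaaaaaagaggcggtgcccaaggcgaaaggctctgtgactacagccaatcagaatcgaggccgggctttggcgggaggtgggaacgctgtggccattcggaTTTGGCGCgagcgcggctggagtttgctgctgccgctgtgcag
GINS3, chr16:58392221-58392520, plus strand: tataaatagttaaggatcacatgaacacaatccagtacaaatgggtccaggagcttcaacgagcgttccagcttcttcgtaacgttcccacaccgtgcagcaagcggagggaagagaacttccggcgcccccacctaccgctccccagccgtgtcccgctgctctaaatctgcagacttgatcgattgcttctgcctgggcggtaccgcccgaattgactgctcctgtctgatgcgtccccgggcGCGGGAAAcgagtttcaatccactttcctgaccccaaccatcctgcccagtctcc
MCM6, chr2:135876394-135876693, minus strand: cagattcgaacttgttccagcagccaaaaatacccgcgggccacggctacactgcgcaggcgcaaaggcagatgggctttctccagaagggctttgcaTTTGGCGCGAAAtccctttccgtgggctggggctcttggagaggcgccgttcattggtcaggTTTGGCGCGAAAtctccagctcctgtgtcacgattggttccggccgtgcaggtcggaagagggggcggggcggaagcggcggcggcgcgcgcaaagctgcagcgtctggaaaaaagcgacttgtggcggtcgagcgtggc

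In the E2F1 promoter the words begin 33 and 20 bases before the start of the gene, in E2F3 53 bases before it and in GINS3 5 bases before it. CDC6 has a word that begins 7 bases after the start, and MCM6 has words that begin 152, 148, 90 and 86 bases before it. The genes of these promoters did not move alike: after UVC, E2F1 rose and the other 4 fell, as given with their values below. Among the 19 tested genes with a word, 6 rose and 8 fell after UVC (median log2 change -0.08). Among the 21 without a word 9 rose and 8 fell (median -0.00212, all tested genes 42.5% and 43.1%). For active photolyase against UVC, 10 rose and 3 fell with a word (median 0.23). Without a word 10 rose and 8 fell (median -0.03, all tested genes 39.2% and 39.9%). Of the 8 genes with no entry, 1 rose and 5 fell after UVC, and 7 rose and none fell against UVC. The difference between these classes was not tested.

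Levels in control spanned from 1.87 scaled cRPKM for GINS4 to 143 for CCND1, with 19 genes under 5, 19 between 5 and 20, and 10 at 20 or more. The most abundant included CCND1, CDK4 and the helicase genes MCM4 and MCM7, and GINS1, GINS4 and E2F7 were among the scarcest. Exons of 16 of the genes share bases with another protein-coding gene in GENCODE release 29, among them CDK2 with PMEL, CDK4 with TSPAN31, PRIM1 with NACA, TYMS with ENOSF1 and MCM7 with AP4M1. Whether the counting used strand is not given in the sources used here, so the values of these genes are uncertain. For CCND2, FEN1, POLA2, POLD1, PRIM1 and RRM2 an overlap lies on the same strand, where strand would not separate the genes.

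**Figure D1:**
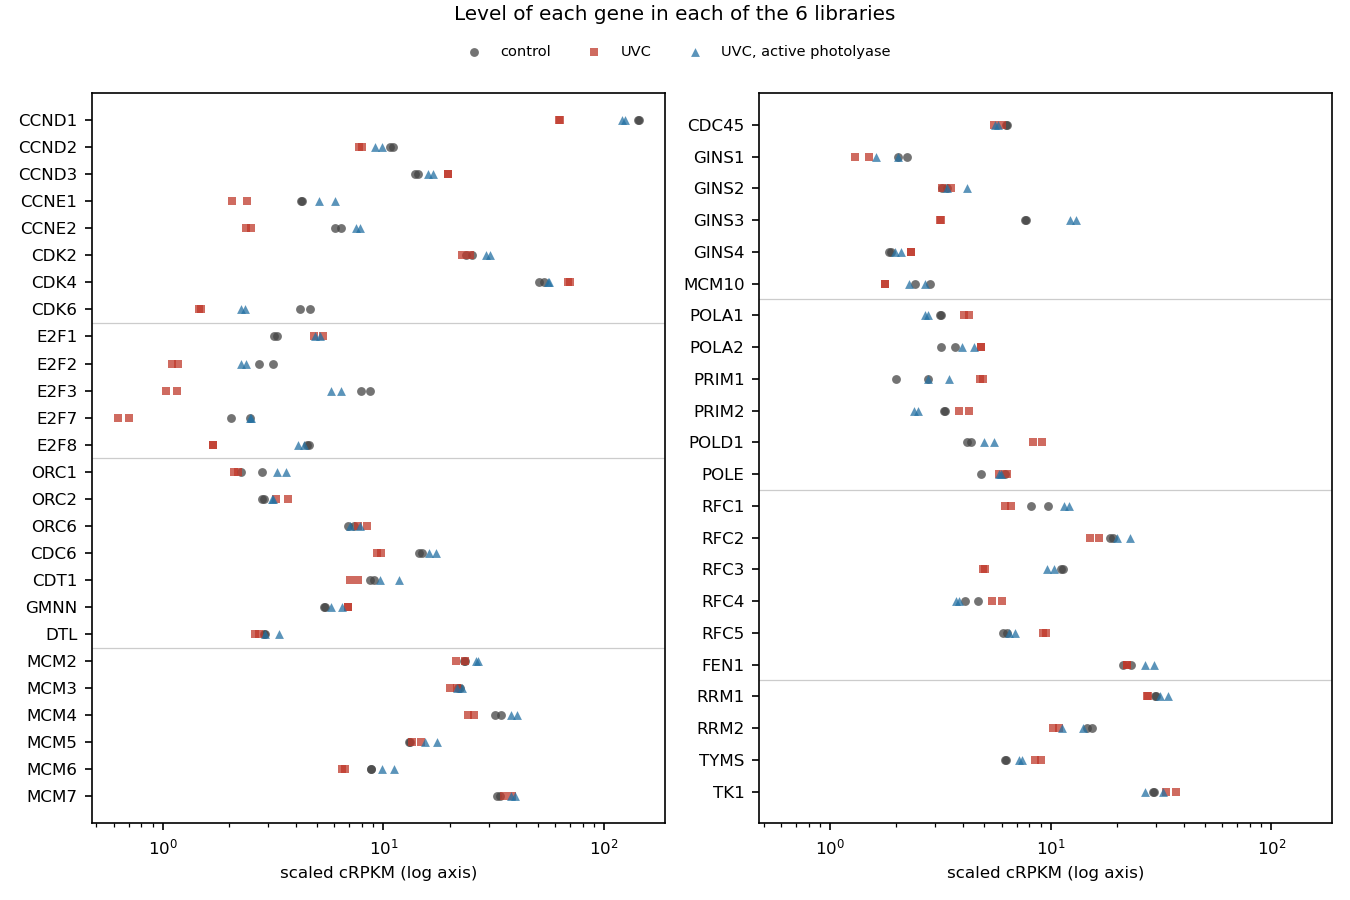
Level of each of the 48 genes in scaled cRPKM on a log axis, with 1 point for each of the 6 libraries (grey circles control, red squares UVC, blue triangles active photolyase) and grey lines between roles. E2F3, E2F7, E2F8, CCNE2 and GINS3 show UVC libraries far to the left of the others, while the points of MCM3 and POLE lie together.

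UVC was compared with control to ask how irradiation moved these transcripts. Cyclins E1, E2 and D1, CDK6 and the E2F factors other than E2F1 fell, and 5 of the 6 polymerase and primase genes rose. Most roles held both rises and falls: CCND3 and CDK4 rose among the G1 genes, and licensing and nucleotide supply had 2 of each. By edgeR's quasi-likelihood test with an adjusted p under 0.05, 16 of 48 genes rose and 21 fell, where 42.5% of all tested genes rose and 43.1% fell. Falls of at least 2-fold numbered 9 (18.6% of all tested genes) and such rises 2 (9.89% of all), so the share of large falls lay near that of all genes. The median log2 change was -0.10 over the 48 genes and 0.0041 over all tested genes. Scaling by library totals in place of TMM moved the median of all genes up by 0.4153, and then 27 of the 48 rose and 11 fell (59.5% and 29.7% of all tested genes), with a median of 0.32. Since library totals moved changes up, only falls could readily be lost, and that the 16 rises held adds little. Of the 21 falls 11 held under both scalings: CCND1, CCNE1, CCNE2, CDK6, E2F2, E2F3, E2F7, E2F8, CDC6, GINS3 and RFC3. A filter of 5 cRPKM ended the calls of CDT1 (-0.15), RFC2 (-0.13) and RRM1 (-0.01), and no filter those of MCM7 (0.04) and TK1 (0.17).

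The irradiated groups were set against each other to see what the photolyase and its light changed. The 11 genes that fell after UVC under both scalings all rose, and 5 of the 6 polymerase and primase genes fell. The same UVC libraries enter both comparisons, so this return is not separate evidence. The share of all tested genes that fell after UVC and then rose was not computed, so the return is not shown to be particular to these genes. With TMM, 27 genes rose and 11 fell (39.2% and 39.9% of all tested genes), 7 of the rises and none of the falls by at least 2-fold (14.0% and 1.37% of all), with a median of 0.25 against -0.0375 over all tested genes. Library totals shifted the all-gene median by -0.3057, and 16 then rose and 20 fell (27.9% and 58.2% of all) and the median was -0.06. The 16 rises under both scalings were CCND1, CCNE1, CCNE2, CDK6, E2F2, E2F3, E2F7, E2F8, ORC1, CDC6, CDT1, MCM4, MCM6, GINS3, RFC1 and RFC3. All 11 falls held under both, but library totals moved changes down here, so only rises could readily be lost. A filter of 5 cRPKM ended the calls of MCM5 (0.12) and RRM2 (0.16), and no filter that of POLA2 (-0.15).

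Active photolyase was also compared with control, to ask how far levels stood from those of untreated cells. Changes were small: 22 genes rose and 9 fell (33.0% and 32.9% of all tested genes), none by 2-fold (4.06% of all rose and 2.02% fell that far), with a median of 0.14 against 0.0115 over all. The 22 rises held with library totals, where the all-gene median shifted up by 0.1097, a shift that works for rises. Rises then numbered 31 and falls 4 (43.8% and 23.9% of all). Without a filter on low genes the rises of CDC6 (0.13), MCM2 (0.14), PRIM1 (0.33), RFC2 (0.14), RRM1 (0.08) and TYMS (0.18) were not called. Falls under both scalings were those of CDK6, E2F2, E2F3 and PRIM2. The counts rested on single libraries: without active photolyase replicate 2 the rises were 13, and without active photolyase replicate 1 the falls were 5. The 3 comparisons share libraries, so their values are given side by side and not as separate evidence.

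**Figure D2:**
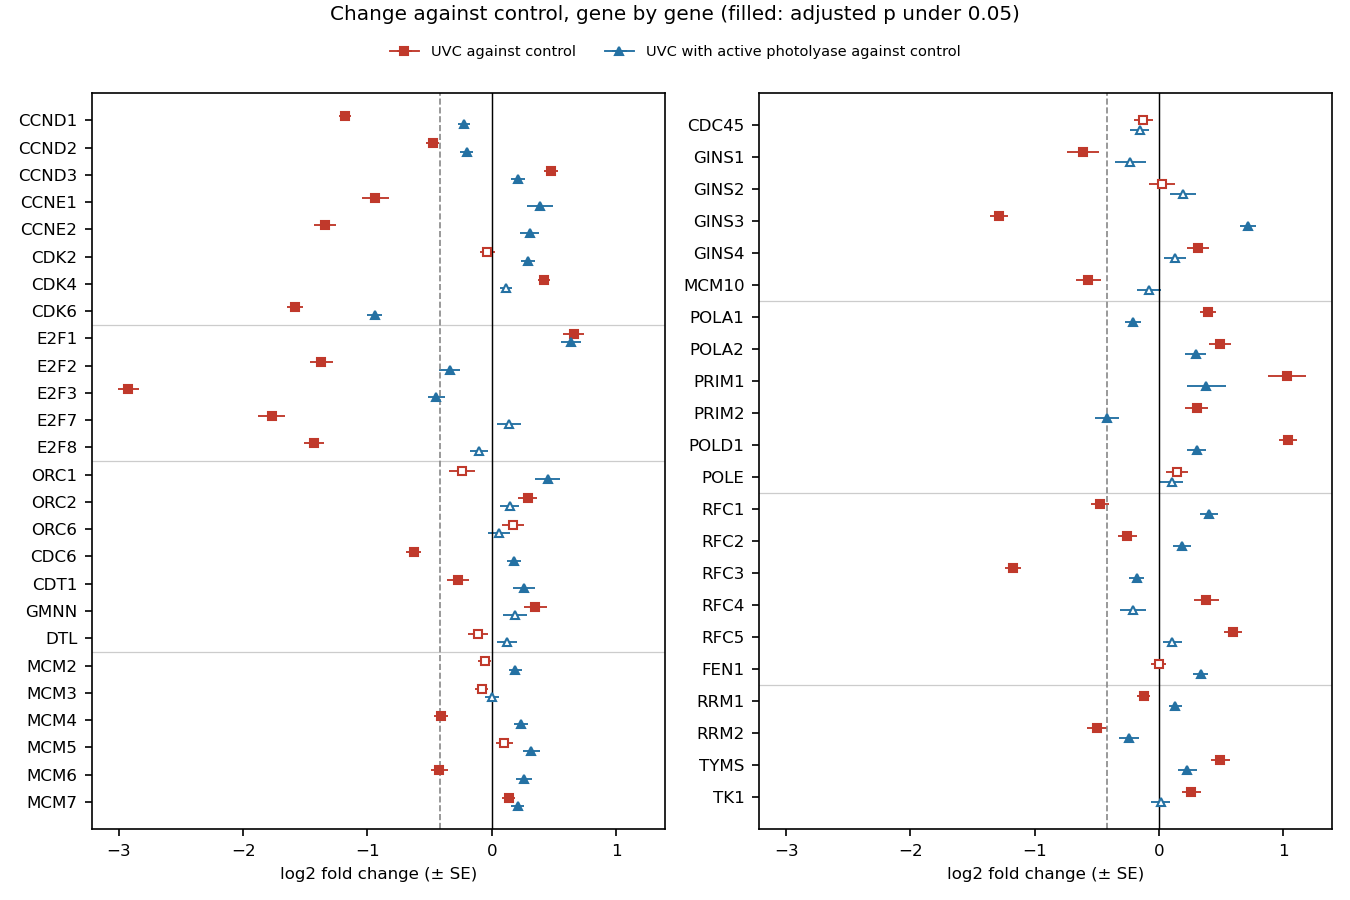
Log2 fold change (± SE, edgeR) of each gene after UVC (red squares) and with active photolyase (blue triangles), both against control, filled where the adjusted p was under 0.05. The dashed line lies at the shift of 0.4153 below 0: a UVC value to its right would be above 0 with library totals. E2F3 lies farthest left at -2.92, and most blue points lie near 0, with CDK6 at -0.94, E2F1 at 0.64 and GINS3 at 0.71 farthest out.

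Cyclin D1 (CCND1, ENSG00000110092), the most abundant D-type cyclin here, stood in scaled cRPKM at 142 and 144 for the control libraries, 63.1 and 62.8 for UVC and 120 and 124 for active photolyase. The groups did not overlap, and active photolyase lay between the others, nearer to control. It fell by 1.18 ± 0.05 (SE) on the log2 scale after UVC (adjusted p = 5.15e-11) and rose by 0.96 ± 0.05 with active photolyase against UVC (adjusted p = 7.32e-10). Against control the change was -0.22 ± 0.05 (adjusted p = 0.00143), a fall not called with library totals (-0.11).

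CCND2 and CCND3, the other D-type cyclins, went opposite ways. CCND2 was 10.8 and 11.1 (control), 7.72 and 7.99 (UVC) and 9.18 and 9.83 (active photolyase). Its log2 changes were -0.48 ± 0.05 after UVC, 0.28 ± 0.05 for active photolyase against UVC and -0.20 ± 0.05 against control, and with library totals none was called (-0.06, -0.03 and -0.09). CCND3 was 13.9 and 14.4 for the control libraries, 19.6 and 19.7 for UVC and 15.9 and 16.8 for active photolyase. It rose after UVC (0.47 ± 0.06, adjusted p = 2.88e-06), fell back against UVC (-0.26 ± 0.06) and stayed above control (0.21 ± 0.06). Without active photolyase replicate 1 the CCND2 call against control was lost (-0.15), and without replicate 2 that of CCND3 (0.17).

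The E-type cyclins, partners of CDK2 at the entry into S phase, were low after UVC and above control with active photolyase. CCNE1 (ENSG00000105173) read 4.30 and 4.24 (control), 2.41 and 2.06 (UVC) and 5.12 and 6.05 (active photolyase). CCNE2 (ENSG00000175305) read 6.04 and 6.41, then 2.52 and 2.39, then 7.51 and 7.86. In both genes the groups did not overlap, and their order was UVC, control, active photolyase. CCNE1 fell by 0.94 ± 0.11 after UVC (adjusted p = 2.84e-06) and rose by 1.32 ± 0.11 against UVC (adjusted p = 9.05e-08). CCNE2 had the largest rise of this role against UVC, 1.65 ± 0.09 (adjusted p = 7.96e-10), after a fall of -1.34 ± 0.09 (adjusted p = 5.57e-09). Against control the rises were 0.39 ± 0.10 for CCNE1 (adjusted p = 0.00449) and 0.30 ± 0.08 for CCNE2 (adjusted p = 0.00431). The CCNE1 rise against control was not called without active photolyase replicate 2 (0.27).

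Among the kinases, CDK6 fell deepest and stayed below control. Its levels were 4.21 and 4.66 for the control libraries, 1.47 and 1.49 for UVC and 2.36 and 2.26 for active photolyase, so that control stood apart from both irradiated groups. The log2 changes were -1.58 ± 0.06 after UVC (adjusted p = 3.31e-11), 0.64 ± 0.07 against UVC (adjusted p = 9.42e-07) and -0.94 ± 0.06 against control (adjusted p = 3.85e-08). CDK6 thus had the largest fall against control among the 48 genes.

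CDK4, which also pairs with D-type cyclins, was 53.2 and 50.5 (control), 70.1 and 68.9 (UVC) and 56.5 and 55.9 (active photolyase). It rose after UVC (0.42 ± 0.05, adjusted p = 2.03e-06) and fell against UVC (-0.31 ± 0.05, adjusted p = 6.09e-05), and its value against control was 0.12 ± 0.05 (adjusted p = 0.0518), called as a rise with library totals (0.23), a filter of 5 cRPKM (0.14), limma (0.11 and 0.12 at its 2 pseudocounts) and without control replicate 1 (0.15). CDK2, the partner of cyclin E, was 23.6 and 25.1 for the control libraries, 22.8 and 24.7 for UVC and 29.2 and 30.4 for active photolyase. Control and UVC overlapped (-0.03 ± 0.06, adjusted p = 0.582, turning to 0.38 and a call with library totals). With active photolyase CDK2 was higher than in UVC (0.33 ± 0.06, adjusted p = 0.000146, 0.02 and no call with library totals) and than in control (0.29 ± 0.06, adjusted p = 0.0006).

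**Figure D3:**
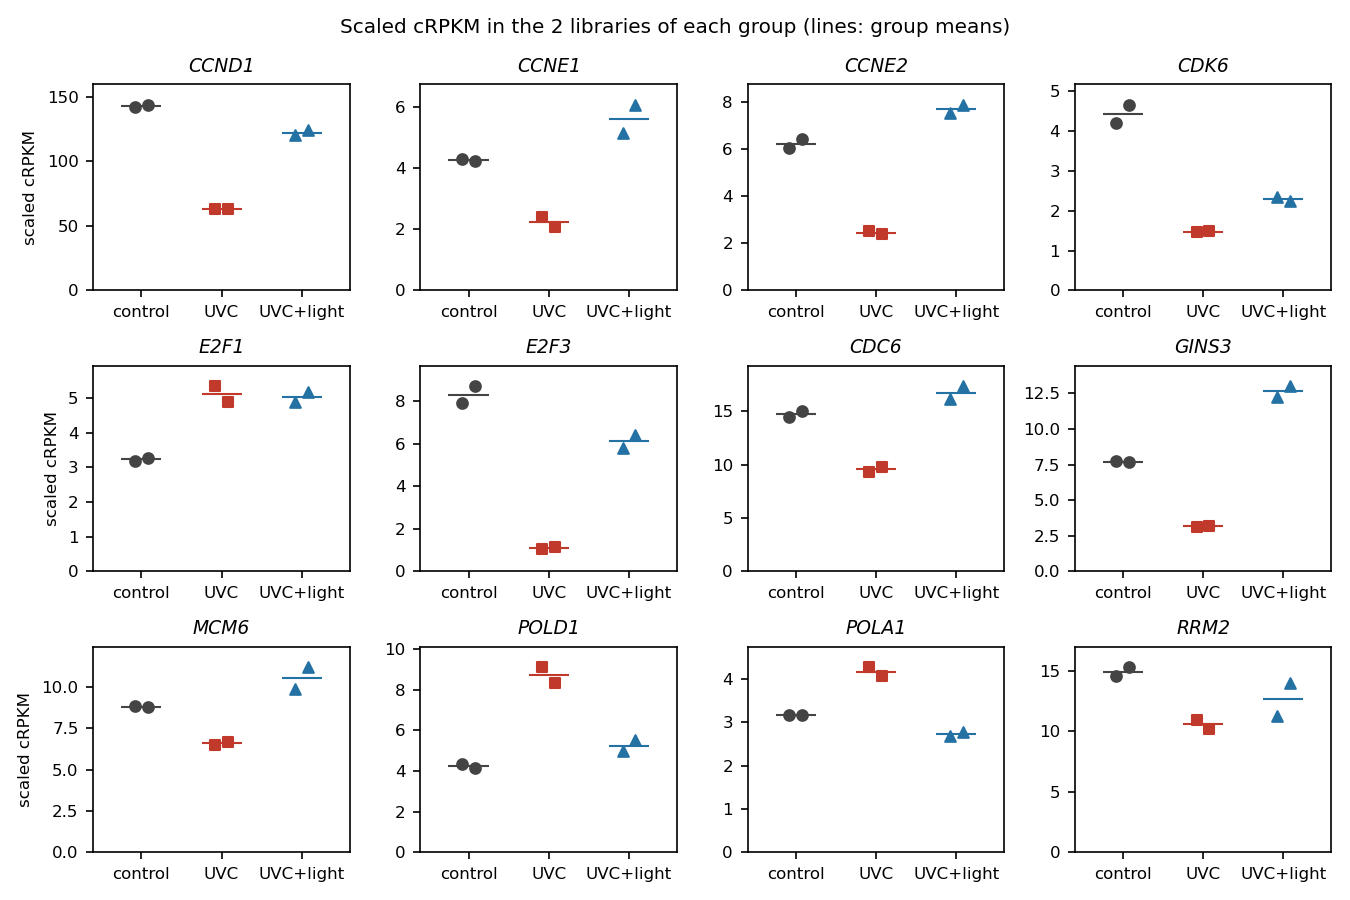
Scaled cRPKM of 12 genes in the 2 libraries of each group, with a line at each group mean and every axis from 0; UVC+light is active photolyase. CCNE2 and GINS3 are lowest after UVC and highest with active photolyase, E2F1 is high in both irradiated groups, and POLD1 and POLA1 are highest after UVC.

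E2F1, an activator of S-phase genes, was the exception among 5 E2F factors. It was 3.18 and 3.28 (control), 5.35 and 4.87 (UVC) and 4.87 and 5.18 (active photolyase), with control below both irradiated groups, which overlapped. It rose by 0.66 ± 0.08 after UVC (adjusted p = 4.71e-06) and by 0.64 ± 0.08 with active photolyase, both against control (adjusted p = 1.91e-05). The difference between the irradiated groups was -0.02 ± 0.08 (adjusted p = 0.791), or -0.33 and called with library totals.

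E2F3, another activator, had the deepest fall of the 48 genes. Its levels were 7.93 and 8.72 for the control libraries, 1.03 and 1.16 for UVC and 5.82 and 6.41 for active photolyase. UVC stood far below the rest, a 7.58-fold fall (-2.92 ± 0.08, adjusted p = 1.03e-12), and the rise against UVC was 2.48 ± 0.09 (adjusted p = 9.39e-12), the largest of the list. Against control E2F3 was lower by -0.45 ± 0.07 (adjusted p = 0.000116).

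E2F2, also an activator, went from 3.15 and 2.74 to 1.18 and 1.10 after UVC, and was 2.38 and 2.27 with active photolyase. It fell by 1.37 ± 0.09, rose by 1.03 ± 0.09 against UVC and stayed below control (-0.34 ± 0.09, adjusted p = 0.00357).

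E2F7 and E2F8, the atypical E2F factors that repress E2F targets, fell after UVC and came back. E2F7 was 2.04 and 2.49 (control), 0.703 and 0.626 (UVC) and 2.48 and 2.51 (active photolyase). It passed the filter of 1 cRPKM only through control and active photolyase, which favours its fall after UVC. E2F8 was 4.50 and 4.60, then 1.69 and 1.68, then 4.38 and 4.12. After UVC the log2 changes were -1.77 ± 0.11 (E2F7) and -1.43 ± 0.08 (E2F8), and against UVC 1.91 ± 0.11 and 1.33 ± 0.08. Neither was called against control with TMM (0.14 ± 0.09 and -0.10 ± 0.07), while E2F7 was with library totals (0.25) and without control replicate 2 (0.29). In this role 4 of 5 genes fell by at least 2-fold after UVC (18.6% of all tested genes), with a median of -1.43, and 4 rose by at least 2-fold against UVC (14.0% of all).

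CDC6, which loads the helicase with CDT1, led the falls among 7 origin and licensing genes. It was 14.5 and 15.0 for the control libraries, 9.35 and 9.75 for UVC and 16.1 and 17.4 for active photolyase. The groups did not overlap, with active photolyase highest. CDC6 fell by 0.63 ± 0.06 after UVC (adjusted p = 2.29e-07), rose by 0.81 ± 0.06 against UVC (adjusted p = 2.34e-08) and was above control by 0.18 ± 0.06 (adjusted p = 0.0134), a call lost without active photolyase replicate 2 (0.13).

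CDT1 was 8.73 and 9.09 (control), 7.66 and 7.08 (UVC) and 9.61 and 11.7 (active photolyase), whose 2 libraries differed most. Its changes were -0.27 ± 0.09 after UVC (adjusted p = 0.00992, but 0.14 with library totals), 0.53 ± 0.09 against UVC (adjusted p = 7.06e-05) and 0.26 ± 0.09 against control (adjusted p = 0.0168). The first call was lost without UVC replicate 2 (-0.22) and the last without active photolyase replicate 2 (0.11).

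GMNN, which encodes geminin, the inhibitor of CDT1, had the largest rise of the role after UVC. It went from 5.42 and 5.38 to 6.90 and 6.89 (0.35 ± 0.09, adjusted p = 0.00336), and was 5.81 and 6.50 with active photolyase, not called against either group with TMM. With library totals GMNN fell against UVC (-0.47) and was above control (0.30). The first was also called with a filter of 5 cRPKM (-0.26) and without active photolyase replicate 2 (-0.29), and the other with limma (0.16 and 0.18 at its 2 pseudocounts). DTL, the substrate receptor of the ligase that marks CDT1 for destruction, was 2.86 and 2.91 in control and 2.74 and 2.61 after UVC (-0.11 ± 0.08, adjusted p = 0.227). With active photolyase DTL was 2.91 and 3.37, a rise of 0.23 ± 0.08 against UVC that was lost without UVC replicate 2 (0.20) or active photolyase replicate 2 (0.09) and was -0.07 with library totals.

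ORC1, the origin recognition subunit whose level is tied to the cell cycle, was 2.27 and 2.80 for the control libraries, 2.11 and 2.18 for UVC and 3.31 and 3.60 for active photolyase, which stood above both other groups. It rose by 0.69 ± 0.10 against UVC (adjusted p = 3.54e-05) and by 0.45 ± 0.10 against control (adjusted p = 0.00175), the largest rise of the role there. The change after UVC was -0.24 ± 0.11 (adjusted p = 0.0505, and 0.18 with library totals). ORC2 rose after UVC (0.29 ± 0.08), a call lost without UVC replicate 1 (0.20). It was not called against UVC (-0.14) or control (0.14) with TMM, but was with library totals (-0.45 and 0.25). The call against UVC also appeared in a run with a library left out. ORC6 was not called in any comparison with TMM (0.17, -0.11 and 0.06). With library totals ORC6 rose after UVC (0.58) and fell against UVC (-0.42), as it did with a filter of 5 cRPKM (0.29 and -0.21). Its UVC rise was also called without active photolyase replicate 2 (0.21).

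The MCM2-7 genes encode the ring of the replicative helicase. With TMM scaling 1 of the 6 rose after UVC and 2 fell (42.5% and 43.1% of all tested genes). With library totals 4 rose and none fell (59.5% and 29.7% of all). MCM6 was 8.83 and 8.81 (control), 6.50 and 6.67 (UVC) and 9.89 and 11.2 (active photolyase). MCM4 was 32.1 and 34.2, then 25.7 and 24.2, then 37.9 and 40.2. For both genes the order was UVC, control, active photolyase, with no overlap. MCM6 had the largest fall and the largest rise of the role, -0.42 ± 0.07 after UVC (adjusted p = 4.16e-05) and 0.68 ± 0.07 against UVC (adjusted p = 4.90e-07). MCM4 changed by -0.41 ± 0.05 (adjusted p = 8.40e-06) and 0.65 ± 0.05 (adjusted p = 1.20e-07). Their falls were not called with library totals (-0.01 for MCM6, and 0.01 for MCM4), whereas their rises were (0.37 and 0.34).

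MCM2 was 23.4 and 23.2 for the control libraries, 23.5 and 21.3 for UVC and 26.7 and 26.4 for active photolyase. Control and UVC overlapped (-0.06 ± 0.05, adjusted p = 0.33, or 0.36 and called with library totals), and active photolyase was above both. Its rises were 0.25 ± 0.05 against UVC (adjusted p = 0.000884, and -0.06 with library totals) and 0.19 ± 0.05 against control (adjusted p = 0.0076).

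MCM7 rose after UVC from 33.9 and 32.8 to 38.1 and 35.2 (0.14 ± 0.05, adjusted p = 0.031), a call that DESeq2 did not make and that was lost without control replicate 2 (0.11) or UVC replicate 1 (0.08). MCM5 had the largest rise of the role against control, from 13.2 and 13.1 to 15.4 and 17.4 (0.32 ± 0.07, adjusted p = 0.0011). Against UVC its rise was 0.22 ± 0.07, lost without UVC replicate 2 (0.15) or active photolyase replicate 2 (0.09), and -0.09 with library totals. MCM3 was not called in any comparison with TMM (-0.08, 0.08 and 0.003), but with library totals it rose after UVC (0.33) and fell against UVC (-0.22), and with no filter it fell after UVC (-0.17). Against control 5 of these 6 genes rose with active photolyase and none fell, with either scaling (33.0% and 32.9% of all tested genes, or 43.8% and 23.9% with library totals). Without active photolyase replicate 2 the call of MCM6 was lost (0.17).

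GINS3, a subunit of the complex that activates the helicase, stood out among the 6 helicase activation genes. It was 7.75 and 7.68 (control), 3.13 and 3.17 (UVC) and 12.3 and 13.0 (active photolyase). The 3 groups lay far apart, and replicates differed little. GINS3 fell by 1.29 ± 0.07 after UVC (adjusted p = 8.37e-10), rose 4.01-fold against UVC (2.00 ± 0.07, adjusted p = 1.02e-11) and was 1.64-fold above control (0.71 ± 0.06, adjusted p = 6.26e-07), the largest rise against control of the 48 genes.

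The other GINS subunits changed by less. GINS1 was 2.04 and 2.23 for the control libraries, 1.499 and 1.29 for UVC and 1.61 and 2.04 for active photolyase, a fall of -0.61 ± 0.13 after UVC (-0.20 and no call with library totals). Its rise against UVC (0.38 ± 0.13) was lost without UVC replicate 2 (0.28) or active photolyase replicate 2 (0.17), and with library totals (0.08). GINS2 was not called in any comparison with TMM (0.03, 0.16 and 0.19), but with library totals it rose after UVC (0.44) and against control (0.30), and without active photolyase replicate 1 against UVC (0.30) and control (0.33). GINS4 rose after UVC, from 1.89 and 1.84 to 2.32 in both libraries (0.31 ± 0.09, adjusted p = 0.00444), the largest rise of the role there, and read 1.97 and 2.10 with active photolyase, a change called against UVC (-0.49) and control (0.23) with library totals, and against UVC without active photolyase replicate 2 (-0.27).

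MCM10, which joins the helicase to polymerase alpha, fell after UVC from 2.44 and 2.83 to 1.77 and 1.78 (-0.57 ± 0.10) and rose against UVC to 2.28 and 2.70 (0.49 ± 0.10). Neither was called with library totals (-0.15 and 0.18). CDC45, a further part of the active helicase, was not called in any comparison with TMM (-0.13, -0.03 and -0.16). With library totals CDC45 rose after UVC (0.29) and fell against UVC (-0.34), and with no filter it fell after UVC (-0.22) and against control (-0.20).

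None of the 6 polymerase and primase genes fell after UVC with either scaling: 5 rose with TMM (42.5% of all tested genes), with a median of 0.44, and 5 fell against UVC (39.9% of all), with a median of -0.63. POLD1, the catalytic subunit of polymerase delta, was 4.34 and 4.16 (control), 9.11 and 8.33 (UVC) and 4.98 and 5.51 (active photolyase). Its UVC libraries stood far above the rest, and POLD1 had the largest rise of the 48 genes (1.04 ± 0.07, adjusted p = 1.16e-08) and the largest fall against UVC (-0.73 ± 0.07, adjusted p = 5.62e-07). Against control it remained higher (0.30 ± 0.08, adjusted p = 0.00332). Exons of POLD1, PRIM1 and POLA2 share bases with another coding gene on the same strand, and the part of this in their values was not tested.

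PRIM1, the catalytic primase subunit, was 2.78 and 1.99 for the control libraries, 4.95 and 4.80 for UVC and 2.77 and 3.46 for active photolyase. Control and active photolyase overlapped. It rose after UVC (1.03 ± 0.15, adjusted p = 2.18e-05) and fell against UVC (-0.65 ± 0.14, adjusted p = 0.00103). Its largest rise of the role against control, 0.38 ± 0.16 (adjusted p = 0.0494), was lost with DESeq2 and limma, without control replicate 2 (0.16) and without active photolyase replicate 2 (0.22).

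POLA1 and PRIM2 have the longest genomic spans of the 48, 303 and 332 kb in GENCODE release 29 on GRCh38. POLA1, the catalytic subunit of polymerase alpha, was 3.16 and 3.18 (control), 4.27 and 4.06 (UVC) and 2.69 and 2.78 (active photolyase). PRIM2, the large primase subunit, was 3.27 and 3.31, then 3.84 and 4.28, then 2.50 and 2.41. In both genes active photolyase lay below control and UVC above it. After UVC they rose by 0.40 ± 0.07 and 0.30 ± 0.09, and against UVC the changes were -0.60 ± 0.07 and -0.72 ± 0.09. Against control POLA1 changed by -0.21 ± 0.07 (adjusted p = 0.015), not called with library totals (-0.10) or without active photolyase replicate 1 (-0.19), and PRIM2 by -0.42 ± 0.10 (adjusted p = 0.00174), the largest fall of the role. The UVC rise of PRIM2 was not called without UVC replicate 2 (0.22).

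POLA2, the regulatory subunit beside POLA1, rose after UVC from 3.19 and 3.70 to 4.85 and 4.84 (0.49 ± 0.09) and was 3.98 and 4.47 with active photolyase. Its fall against UVC (-0.20 ± 0.08, adjusted p = 0.0453) was lost with DESeq2 and limma, and without either UVC replicate (-0.20 both times) or active photolyase replicate 1 (-0.12). Its rise against control (0.29 ± 0.09) was lost without control replicate 1 (0.19) or active photolyase replicate 2 (0.21). POLE, the catalytic subunit of the leading-strand polymerase, was not called in any comparison with TMM (0.14, -0.04 and 0.10), but was in all 3 with library totals (0.56, -0.35 and 0.21). POLE also rose after UVC with a filter of 5 cRPKM (0.26) and, after UVC and against control, without control replicate 2 (0.33 and 0.29). Its control libraries, 4.81 and 6.18, bracketed the other 2 groups except for 1 UVC library at 6.34.

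The clamp loader RFC, which opens the PCNA ring, has 5 subunits that moved apart after UVC. RFC3 was 11.4 and 11.2 for the control libraries, 4.93 and 5.06 for UVC and 9.61 and 10.3 for active photolyase. It fell by 1.18 ± 0.07 (adjusted p = 1.05e-09) and rose by 1.00 ± 0.07 against UVC (adjusted p = 1.06e-08). RFC5 moved the other way, from 6.37 and 6.05 to 9.22 and 9.53, and was 6.49 and 6.89 with active photolyase. Its log2 changes were 0.60 ± 0.08 after UVC (adjusted p = 5.28e-06) and -0.49 ± 0.07 against UVC. RFC4 also rose, from 4.69 and 4.10 to 5.44 and 5.99 (0.38 ± 0.10), and had the largest fall of the role against UVC (-0.59 ± 0.10, adjusted p = 0.000114), to 3.85 and 3.74.

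RFC1, the large subunit, was 8.12 and 9.70 (control), 6.23 and 6.58 (UVC) and 11.5 and 12.1 (active photolyase). Its fall of -0.48 ± 0.08 was not called with library totals (-0.06). It rose against UVC (0.88 ± 0.08) and, with the largest rise of the role there, against control (0.40 ± 0.07, adjusted p = 0.000344). RFC2 fell after UVC (-0.25 ± 0.08), a call lost without UVC replicate 1 (-0.18) and turned to 0.16 with library totals. It rose against UVC (0.44 ± 0.07, 0.13 and no call with library totals). Against control RFC2 was at 0.18 ± 0.07 and RFC3 at -0.18 ± 0.06 (adjusted p = 0.0432 and 0.0229), calls that DESeq2 did not make, nor limma that of RFC2. The RFC2 call was lost without control replicate 2 (0.16) or active photolyase replicate 2 (0.09), and the RFC3 call without control replicate 1 (-0.17), without active photolyase replicate 1 (-0.13) and with library totals (-0.07).

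FEN1, the nuclease that trims Okazaki fragments, was 21.3 and 23.2 in control, 22.2 and 22.2 following UVC, then 26.7 and 29.4 under active photolyase. Control and UVC overlapped (-0.00212, adjusted p = 0.975, or 0.41 and called with library totals). It rose with active photolyase against control (0.34 ± 0.06, adjusted p = 0.000317) and against UVC (0.34 ± 0.06, 0.03 and no call with library totals).

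Genes of deoxynucleotide supply moved little and apart. RRM2, the S-phase subunit of ribonucleotide reductase, was 14.6 and 15.3 for the control libraries, 10.95 and 10.2 for UVC and 11.3 and 14.0 for active photolyase. It fell by 0.50 ± 0.08 after UVC (adjusted p = 7.85e-05, -0.08 and no call with library totals). The 2 active photolyase libraries lay apart: the rise against UVC (0.26 ± 0.08, adjusted p = 0.0127) was lost without UVC replicate 2 (0.21) or active photolyase replicate 2 (0.05) and was -0.05 with library totals. The fall against control (-0.24 ± 0.08, adjusted p = 0.0211) was lost without control replicate 2 (-0.21) or active photolyase replicate 1 (-0.09), and with library totals (-0.13).

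TYMS, thymidylate synthase, rose after UVC from 6.20 and 6.26 to 9.07 and 8.46 (0.49 ± 0.08, adjusted p = 3.85e-05) and was 7.40 and 7.19 with active photolyase. It fell against UVC (-0.27 ± 0.08, adjusted p = 0.00539) and stayed above control (0.23 ± 0.08, adjusted p = 0.0208), calls lost without UVC replicate 1 (-0.21) and, against control, without control replicate 1 (0.22), without active photolyase replicate 1 (0.21) and with DESeq2. TK1, thymidine kinase, was 29.2 and 29.5 (control), 37.1 and 33.2 (UVC) and 26.8 and 32.4 (active photolyase). Its rise after UVC (0.26 ± 0.08) was lost without UVC replicate 1 (0.18). Its fall against UVC (-0.25 ± 0.08) was lost without UVC replicate 1 (-0.17) or active photolyase replicate 1 (-0.12). RRM1, the large reductase subunit, changed by -0.12 ± 0.05, 0.25 ± 0.05 and 0.13 ± 0.05 in the 3 comparisons. Its first call was lost with any 1 of the 4 libraries compared left out (-0.13 to -0.12), with DESeq2 and with limma, and was 0.29 with library totals. Its second turned to -0.05 with library totals, and its last was lost without either control replicate (0.13 both times) or active photolyase replicate 2 (0.06), and with DESeq2 and limma.

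Genomic span was set beside the changes, since a longer gene holds more sites for lesions. Over the 48 genes Spearman's rho between span and log2 change was -0.19 after UVC, 0.08 for active photolyase against UVC and -0.27 against control, and over 11728 tested genes with a span it was -0.24, 0.02 and -0.44. With a filter of 5 cRPKM the value of the members against control was -0.052, and against UVC 0.16. These are descriptions across genes of the same 6 libraries, and genes are not independent. After UVC the median change of the 6 members over 100 kb was -0.44, but they ranged from -1.58 (CDK6) to 0.47 (CCND3), and the 6 members under 10 kb had a median of 0.07 (all tested genes -0.23 and 0.38). Against control the members over 100 kb had a median of -0.19 and those under 10 kb of 0.23 (all tested genes -0.32 and 0.25). CDK6, POLA1 and PRIM2, whose spans are the longest of the 48, and RFC3, at 149 kb, were below control with active photolyase. With library totals POLA1 and RFC3 were not called there. GINS3, at 111 kb, and CCND3, at 115 kb, were above control.

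**Figure D4:**
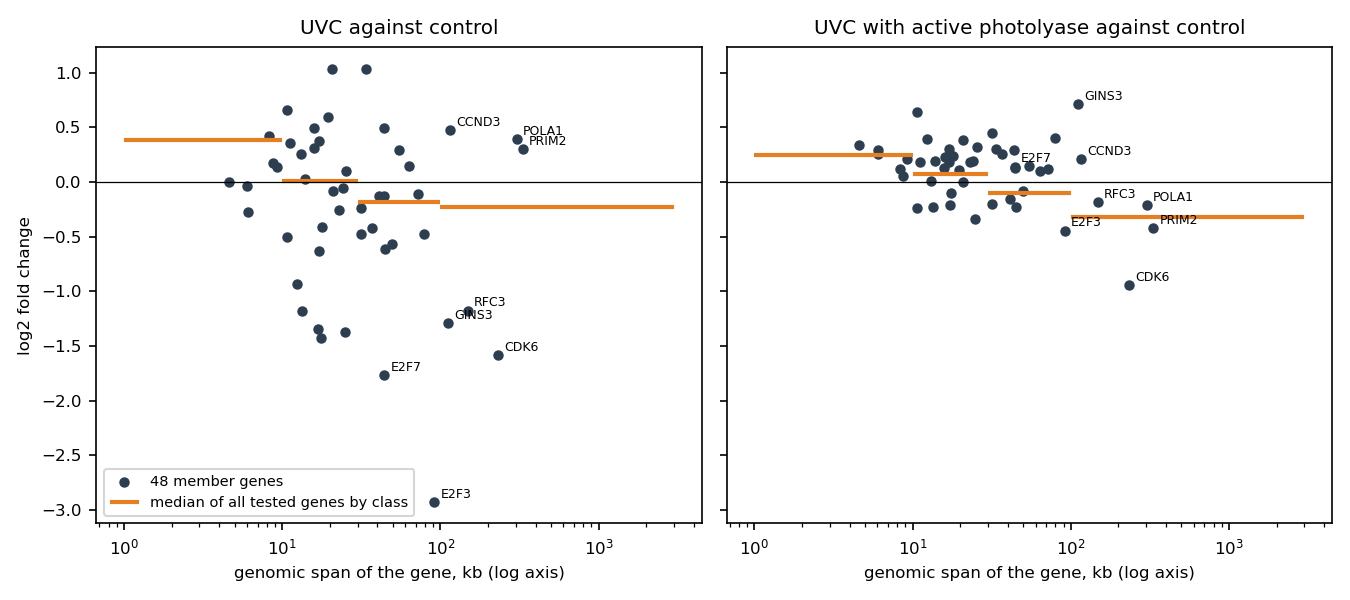
Log2 fold change of the 48 genes against their genomic span in kb (log axis), with orange lines at the median of all tested genes in each span class (under 10, 10 to 30, 30 to 100 and over 100 kb). With active photolyase against control the orange lines step down from 0.25 to -0.32, and CDK6 at -0.94 lies lowest.

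Other genes of the same pathway, 58 in 4 lists, were all tested: 30 rose and 23 fell after UVC, 23 rose and 25 fell for active photolyase against UVC, and 24 rose and 10 fell against control. Of all tested genes 42.5% rose and 43.1% fell in the first comparison, 39.2% and 39.9% in the next, and 33.0% and 32.9% in the last, which serve for the 4 lists too. With library totals these counts were 37 and 13, 16 and 33, and 32 and 6. Of all tested genes 59.5% then rose and 29.7% fell in the first comparison, 27.9% and 58.2% in the next, and 43.8% and 23.9% in the last.

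Among 8 pocket proteins and other E2F and DP factors, 2 rose and 6 fell after UVC. E2F6 (-2.15 ± 0.07) and E2F4 (-0.96 ± 0.05), both repressive E2F factors, fell, and the pocket protein gene RBL2 (0.93 ± 0.06) and TFDP2 (0.75 ± 0.08) rose. Against UVC 4 rose, E2F6 (2.18 ± 0.07) and E2F4 (0.57 ± 0.05) among them, and 3 fell, among them RBL2 (-0.78 ± 0.06) and TFDP2 (-0.68 ± 0.07). The retinoblastoma gene RB1, with 14.4 ± 0.244 (SD, n = 2) scaled cRPKM in control, 11.9 ± 0.389 following UVC and 9.74 ± 0.25 under active photolyase, was lower than control by -0.57 ± 0.05 in the last. E2F4 was also below control there (-0.39 ± 0.05), and RBL2 was the 1 rise of the list (0.14 ± 0.06), a call that DESeq2 and limma did not make and that was lost without control replicate 2 (0.10), active photolyase replicate 1 (0.10) or either UVC replicate (0.14).

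Of 13 inhibitors and regulators of the G1/S kinases, 8 rose and 4 fell after UVC. CDKN1A, which encodes the kinase inhibitor p21, fell from 683 ± 15.6 to 269 ± 2.02 (-1.34 ± 0.05), and so did the phosphatase CDC25A, which activates CDK2, from 6.42 ± 0.412 to 1.61 ± 0.1 (-1.99 ± 0.08). The inhibitors of CDK4 and CDK6 rose: CDKN2B from 34.9 ± 1.69 to 92.1 ± 3.38 (1.40 ± 0.06) and CDKN2D from 3.47 ± 0.0628 to 10.1 ± 0.0638 (1.54 ± 0.10). Against UVC CDC25A (2.04 ± 0.08) and the kinase WEE1 (1.44 ± 0.05) rose, and SKP2 (-0.95 ± 0.09) and CDKN2D (-0.85 ± 0.09) fell. CDKN2B kept a level of 87.1 ± 4.52 with active photolyase, 1.32 ± 0.06 above control, and CDKN1C was 1.73 ± 0.17 above control. In control CDKN1C read 0.485 and 0.441 scaled cRPKM, and it passed the filter of 1 cRPKM only through the irradiated groups. The filter thus favours its rise. FBXW7, which marks cyclin E for destruction, and CCNA2, cyclin A, were below control (-0.96 ± 0.09 and -0.36 ± 0.12), and CCNA2 was not called there with library totals (-0.25) or without control replicate 2 (-0.34) or active photolyase replicate 1 (-0.19).

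Of 17 other origin and firing factors, 7 rose and 8 fell after UVC. DBF4, the activator of the kinase CDC7, fell (-1.55 ± 0.08) while CDC7 rose (1.10 ± 0.12). In control CDC7 read 0.834 and 0.972 scaled cRPKM, and it passed the filter of 1 cRPKM only through the irradiated groups, which favours its rises. MCMBP, which binds MCM proteins, fell (-1.47 ± 0.05) and TIMELESS, of the fork protection complex, rose (0.75 ± 0.07). Against UVC 6 rose, with the smallest p for MCMBP (1.26 ± 0.05) and DONSON (1.60 ± 0.08), and 7 fell, with the smallest p for TIMELESS (-0.53 ± 0.07) and ORC3 (-0.50 ± 0.08). Against control 6 rose, with the smallest p for DONSON (0.53 ± 0.07) and CDC7 (0.85 ± 0.12), and 4 fell, with the smallest p for MCMBP (-0.21 ± 0.05, -0.10 and no call with library totals) and ORC5 (-0.34 ± 0.09).

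Of 20 other fork, Okazaki fragment and chromatin assembly genes, 13 rose and 5 fell after UVC. RPA2, of the single-strand binding complex (0.86 ± 0.07), and the nuclease DNA2 (1.20 ± 0.11) rose, and SLBP, which binds histone mRNA (-1.48 ± 0.05), and POLD3 (-0.66 ± 0.07) fell. Against UVC 9 rose, with the smallest p for SLBP (1.66 ± 0.05) and CHAF1B (0.96 ± 0.08), and 10 fell, among them RPA1 (-0.50 ± 0.05). Against control 9 rose and none fell by edgeR (15 and none with library totals, 43.8% and 23.9% of all tested genes). The smallest p were those of PCNA, the sliding clamp (0.54 ± 0.05), and POLE4 (0.56 ± 0.07).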

How the data were processed

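RNA-seq libraries were made with a TruSeq kit, per the labels' protocols. The authors deposited, for each library, raw read counts per Ensembl gene and corrected RPKM (cRPKM). Bowtie and hg19 are named in the submitters' processing notes, while how reads were counted (rule, strand, gene models) is not given in these sources. From the counts, genes with at least 1 cRPKM in at least 2 libraries (11926) were tested with edgeR 4.0.16 (R 4.3.3, TMM scaling, quasi-likelihood F test, 3 group means on 6 libraries). Calls have a Benjamini-Hochberg adjusted p under 0.05 over all tested genes. Every adjusted p printed is from this fit, except those given with the replicate block, which are from the fit with that block. Each SE is the absolute log2 change divided by the square root of the F statistic, so it draws on the spread of all genes. Of 19847 genes, 354 had no values and were left out. The fit had 3 residual degrees of freedom and was run on simulated data in which few genes changed. In the data most genes were called after UVC, so that run does not test the TMM scaling. Printed cRPKM values were divided by TMM factors, 0.885 to 1.18.

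Members, lists and tests were chosen with earlier results of these data known. Each member is described within its role. For the called genes with the largest rise and fall of each role and comparison, and for 11 preset genes, full values are given. Of the other pathway lists, up to 2 rises and 2 falls of smallest p are named. A gene that this rule would name is not reported here. Alternatives were scaling by library totals, DESeq2 1.42.0, other filters, limma 3.58.1 on log2 cRPKM, a replicate block, each library left out and a 1.5-fold threshold. Replicate numbers were shared between groups, but same-numbered libraries did not deviate together (r -0.0505 to 0.126), so they were not treated as pairs. RefSeq promoters and GENCODE 29 spans are on GRCh38, not the build of the files, and serve only for sequence, span and overlap.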

Additional observations from a re-analysis of the deposited data

How the results depend on the processing

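The median of all genes moved with the scaling, the 3 residual degrees of freedom limit every error, and scarce genes such as PRIM1 rest on few counts. Over 189 results of single genes, 2185 of 2407 alternative values kept direction and side of the threshold, 115 kept direction but lost the call, 52 kept direction and gained one, and 55 changed sign, with or without a call. Unless an alternative's own construction shows it (fewer genes or libraries, another threshold), the cause was not tested.

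For UVC against control, rises were 27 with library totals and 4 at 1.5-fold. Falls were 11 with library totals, 11 with a filter of 5 cRPKM and 12 at 1.5-fold. The filter of 5 cRPKM left fewer members tested, and its counts and medians cover only those. With it the UVC falls of CCNE1, CDK6, E2F2, E2F7, E2F8, GINS1 and MCM10 were untested, not lost. Shares of all genes were not computed for 5 cRPKM or 1.5-fold. The median was 0.32 with library totals, -0.19 with no filter and 0.073 with 5 cRPKM. For active photolyase against UVC, rises were 16 with library totals, 16 with 5 cRPKM and 15 at 1.5-fold, falls were 20 with library totals and 5 at 1.5-fold, and the median was -0.056 with library totals and 0.14 with 5 cRPKM. Leaving out each library gave medians from 0.12 to 0.32, and the span correlation became 0.16 with 5 cRPKM. Against control, rises were 2 and falls 1 at 1.5-fold, falls were 4 with library totals and 5 with 5 cRPKM, and the median was 0.25 with library totals and 0.21 with 5 cRPKM. Leaving out each library gave 13 to 22 rises and 5 to 10 falls. The span correlation there became -0.052 with 5 cRPKM.

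Signs turned with library totals after UVC for CDC45 (0.29), CDK2 (0.38), CDT1 (0.14), DTL (0.30), FEN1 (0.41), MCM2 (0.36), MCM3 (0.33), MCM4 (0.0059), ORC1 (0.18), RFC2 (0.16) and RRM1 (0.29). They turned against UVC for CCND2 (-0.029), DTL (-0.073), GINS2 (-0.14), MCM2 (-0.059), MCM3 (-0.22), MCM5 (-0.086), MCM7 (-0.23), RRM1 (-0.052) and RRM2 (-0.048), and against control for E2F8 (0.011) and MCM10 (0.027). With 5 cRPKM they turned after UVC for CDK2 (0.084), FEN1 (0.12), MCM2 (0.062) and MCM3 (0.037), and against UVC for MCM3 (-0.012) and MCM7 (-0.022). With no filter they turned for GINS2 after UVC (-0.066), for CDC45 (0.014), E2F1 (0.021) and POLE (0.0031) against UVC, and for MCM3 (-0.045) and TK1 (-0.036) against control. Leaving out each library gave ranges across 0 after UVC for CDK2 (-0.093 to 0.022), FEN1 (-0.061 to 0.060), GINS2 (-0.046 to 0.095), MCM2 (-0.13 to 0.011) and POLE (-0.027 to 0.33). Against UVC this held for CDC45 (-0.094 to 0.035), E2F1 (-0.11 to 0.046), GINS2 (-0.025 to 0.30) and POLE (-0.10 to 0.024). Against control it held for MCM10 (-0.20 to 0.032), MCM3 (-0.029 to 0.037), ORC6 (-0.020 to 0.14), POLE (-0.068 to 0.29) and TK1 (-0.13 to 0.14).

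Replicate numbers did not pair the libraries (r of -0.0297, -0.0505 and 0.126 between groups). With the replicate block the counts of rises and falls were 16 and 22, 27 and 11, and 22 and 9. The replicate block added calls for ORC1 after UVC (-0.24, edgeR adjusted p = 0.0324) and CDK4 against control (0.12, adjusted p = 0.0441), and the call of PRIM1 against control was lost (0.38, adjusted p = 0.0564).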
